A study of Mus musculus with 4 samples.

Results

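The Hox genes are the subject of these results: all 39 genes whose symbol is Hox, the letter of a cluster (a, b, c or d) and a paralog number, of 31053 genes listed at E15.5 and 32285 at the other stages. Of the 39, 36 had 1 or more UMIs in the cells kept. The samples were mammary rudiments of WT C57B6 female mice (the B6/N substrain by the study's methods) at 3 embryonic ages (E13.5, E14.5, then E15.5) and at birth (P0), with 1 single-cell RNA-seq library per stage, all bud pairs of several embryos pooled, and cells sorted on EpCAM after exclusion of CD45, CD31 and Ter119 positive cells. Because each stage is 1 library, stage and library cannot be told apart, and E15.5 differs from the other stages also in its gene list. Cells with at least 5000 UMIs (unique molecular identifiers, 1 for each captured transcript) and at most 6% mitochondrial UMIs were kept. Each was placed in the epithelium or the mesenchyme by the larger of its summed Epcam, Krt8, Krt18, Krt5 and Krt14 UMIs and its summed Col1a1, Col1a2 and Col3a1 UMIs, which gave 98 epithelial and 135 mesenchymal cells at E13.5, 45 and 31 a day later, 532 and 283 for E15.5, and 230 and 273 for P0. Values given for 4 stages without their names follow this order.

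Hox genes encode homeodomain transcription factors and lie in 4 clusters. Within a cluster, genes with low paralog numbers are generally expressed further forward along the body and genes with high numbers further back, so that the set of Hox genes a cell transcribes carries a record of its position. The mammary buds form along the flank from the thoracic to the inguinal region. Hox proteins bind DNA together with Pbx and Meis proteins. Hoxc8, a gene of the thoracic region, is known to be able to start a mammary programme outside the mammary line, and the group 9 genes Hoxa9, Hoxb9 and Hoxd9 act together in the mammary gland during pregnancy.

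In the GRCm38 annotation, the 11 HoxA members lie on the minus strand of chromosome 6, and the 10 HoxB members span chr11:96194316-96368256, the 9 HoxC members chr15:102921103-103036852 and the 9 HoxD members chr2:74668310-74765142, these on the plus strand. Exons of 9 of the 39 overlap those of another gene on the same strand. The overlap is largest for Hoxd3 and Hoxd4, which share exons, with 62.3% and 52.3% of their exon bases overlapped, so their counts are uncertain. RefSeq promoter windows of 300 bases (GRCm38.p6) were found for 22 of the 39 members. Hoxa7 and Hoxa10 are shown because these genes of 1 cluster had opposite tissue bias, and Hoxb8 because its window holds the Pbx and Hox composite motif TGATNNAT, searched on both strands and printed in capitals. The first Hoxa10 window covers the annotated start of the gene at chr6:52231197-52240854, and the second an internal start. The Hoxa7 window also lies inside its annotated gene, at chr6:52214491-52221854, and so marks an internal start, while that of Hoxb8 covers the annotated start.
Hoxa7, internal start (chr6:52218524-52218823, minus strand): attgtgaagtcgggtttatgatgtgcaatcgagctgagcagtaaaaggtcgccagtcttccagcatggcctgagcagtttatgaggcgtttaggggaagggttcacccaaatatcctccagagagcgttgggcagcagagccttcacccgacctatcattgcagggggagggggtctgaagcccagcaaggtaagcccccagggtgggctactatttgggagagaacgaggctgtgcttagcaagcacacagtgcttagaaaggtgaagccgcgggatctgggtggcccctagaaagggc
Hoxa10 (chr6:52240805-52241104, minus strand): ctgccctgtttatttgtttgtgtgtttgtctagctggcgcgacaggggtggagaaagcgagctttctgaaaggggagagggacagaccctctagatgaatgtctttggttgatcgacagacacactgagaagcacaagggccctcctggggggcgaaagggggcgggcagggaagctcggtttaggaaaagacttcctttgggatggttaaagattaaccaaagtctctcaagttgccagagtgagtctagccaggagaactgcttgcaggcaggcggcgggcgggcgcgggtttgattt
Hoxa10, internal start (chr6:52234890-52235189, minus strand): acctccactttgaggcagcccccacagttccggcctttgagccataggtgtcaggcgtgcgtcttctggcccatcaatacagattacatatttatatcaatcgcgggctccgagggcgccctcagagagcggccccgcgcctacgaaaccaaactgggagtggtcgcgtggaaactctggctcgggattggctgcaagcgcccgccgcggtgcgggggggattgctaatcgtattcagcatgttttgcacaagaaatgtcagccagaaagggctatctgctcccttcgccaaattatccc
Hoxb8 (chr11:96281655-96281954, plus strand): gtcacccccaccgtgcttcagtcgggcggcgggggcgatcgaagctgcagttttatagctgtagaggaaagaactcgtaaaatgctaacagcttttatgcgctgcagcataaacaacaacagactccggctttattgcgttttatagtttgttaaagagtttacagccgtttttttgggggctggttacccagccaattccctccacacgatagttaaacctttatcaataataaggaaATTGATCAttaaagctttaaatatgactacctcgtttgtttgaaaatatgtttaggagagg
The motif was in 4 of the 24 Hox windows (16.7%) and in 8.85% of all 32851 promoter windows, and is a match of letters, not a bound site. The Hox windows had a median of 57.7% G and C and all windows 52.7%.

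Levels are summed UMIs scaled to all UMIs of the same cells, in the usual CPM unit, with exact 95% Poisson intervals. Shares have exact 95% binomial intervals and ratios the exact conditional 95% interval, and all of these cover counting error within 1 library only. Cells are no replicates of a stage, so p-values are not given. The 3' counting gives 1 UMI per transcript, so CPM was not divided by gene length. A gene was compared where both groups together held at least 20 UMIs, and was called where the ratio was 2-fold or more and its interval lay on one side of 1; with 0 UMIs on one side the interval alone decided. Depth was 4506046, 2111282, 21559040 and 5122125 UMIs in the kept cells of the 4 stages, and 1 barcode was shared by E13.5 and E15.5 and 1 by E14.5 and E15.5, neither among kept cells. The label of the tissue held for both groups: a list of 8 other epithelial genes summed to 3114, 2061, 3382 and 2312 CPM in the epithelium of the 4 stages and to 32.0, 7.16, 108 and 80.6 CPM in the mesenchyme.

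The summed Hox level of the epithelium was far lower at E15.5 than a day before, while that of the mesenchyme was far lower only at P0. Summed over all members, the epithelium held 389 (interval 362 to 417), 263 (236 to 293), 23.6 (21.2 to 26.3) and 5.35 CPM (2.93 to 8.98) at the 4 stages. In the mesenchyme the same sum was 688 (656 to 722), 758 (700 to 819), 738 (718 to 758) and 157 CPM (142 to 173). The epithelial level was therefore 0.565 (0.518 to 0.615), 0.347 (0.303 to 0.397), 0.0321 (0.0286 to 0.0358) and 0.0342 (0.0185 to 0.0580) of the mesenchymal level. The kinds of epithelial cell differed between stages, so these sums do not follow like cells. At E14.5, 226 of the 335 epithelial Hox UMIs lay in 13 cells led by Krt1. In the mammary epithelium-like cells described further on the sum was 130 CPM at E14.5 and 46.0 at E15.5. As a measure of mesenchymal RNA in epithelial barcodes, 9 general mesenchyme genes stood in the epithelium at 2.67%, 2.20%, 1.44% and 0.487% of their mesenchymal level at the 4 stages. The part of such RNA in the low Hox levels of E15.5 and P0 was not tested. The list includes Dcn, a leading gene of some epithelial clusters described further on, so its sum need not measure such RNA alone. In the epithelium 1 gene gave 43.1 of its 76.9 CPM at E13.5 and 49.5 of 102 at E14.5. In the epithelium, 93 of 98, 35 of 45, 176 of 532 and 13 of 230 cells had a Hox UMI. With each cell thinned to 5000 UMIs these shares were 72.4%, 42.2%, 9.02% and 3.48%, against 84.4%, 96.8%, 91.9% and 43.6% of mesenchymal cells.

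**Figure D1:**
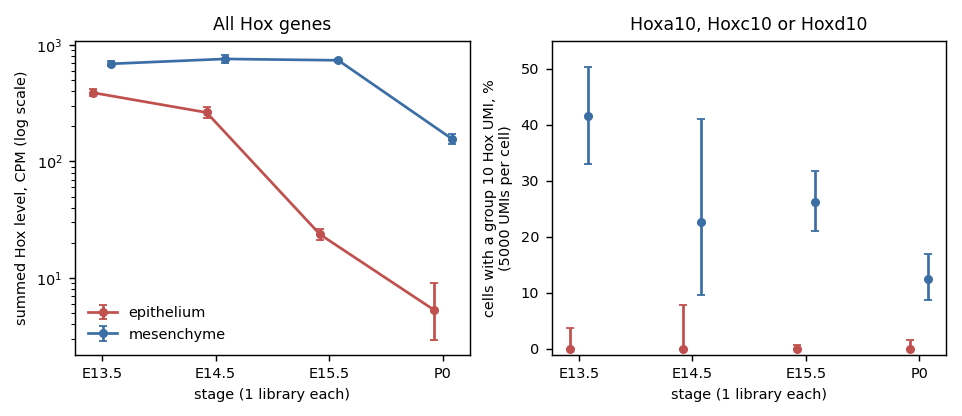
Left, the summed level of all Hox genes in CPM on a log axis, and right, the share of cells with a UMI of Hoxa10, Hoxc10 or Hoxd10 after thinning to 5000 UMIs, for epithelium (red) and mesenchyme (blue) at each stage, with 95% intervals. The epithelial sum goes from 389 CPM at E13.5 to 5.35 at P0, and no epithelial cell has a group 10 UMI after thinning. The kinds of epithelial cell differ between stages.

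Within each tissue the members were spread unevenly over clusters and paralog groups. In the E13.5 epithelium 57.3% of the Hox UMIs came from HoxC, 26.6% from HoxA, 15.9% from HoxB and 0.252% from HoxD. In the E13.5 mesenchyme HoxD gave 10.4%, with 54.2% from HoxC, 19.0% from HoxA and 16.5% from HoxB. HoxD summed to 2 UMIs in the E13.5 epithelium, 0.980 CPM (0.119 to 3.54), against 71.4 CPM in the mesenchyme (61.1 to 82.9). By paralog number, epithelial levels dropped after group 9: group 10 summed to 0.980 CPM at E13.5 (0.119 to 3.54) and group 9 to 31.3 (24.1 to 40.0), while the mesenchyme held 193 CPM of group 10 (176 to 212), its highest group. Group 8 was the highest in the E13.5 epithelium at 173 CPM (155 to 192), nearly all of it Hoxc8. At E15.5 the highest mesenchymal group was group 9 with 254 CPM (242 to 266), and at P0 groups 6, 8, 9 and 10 stood at 27.9, 28.3, 29.1 and 28.7 CPM with overlapping intervals.

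**Figure D2:**
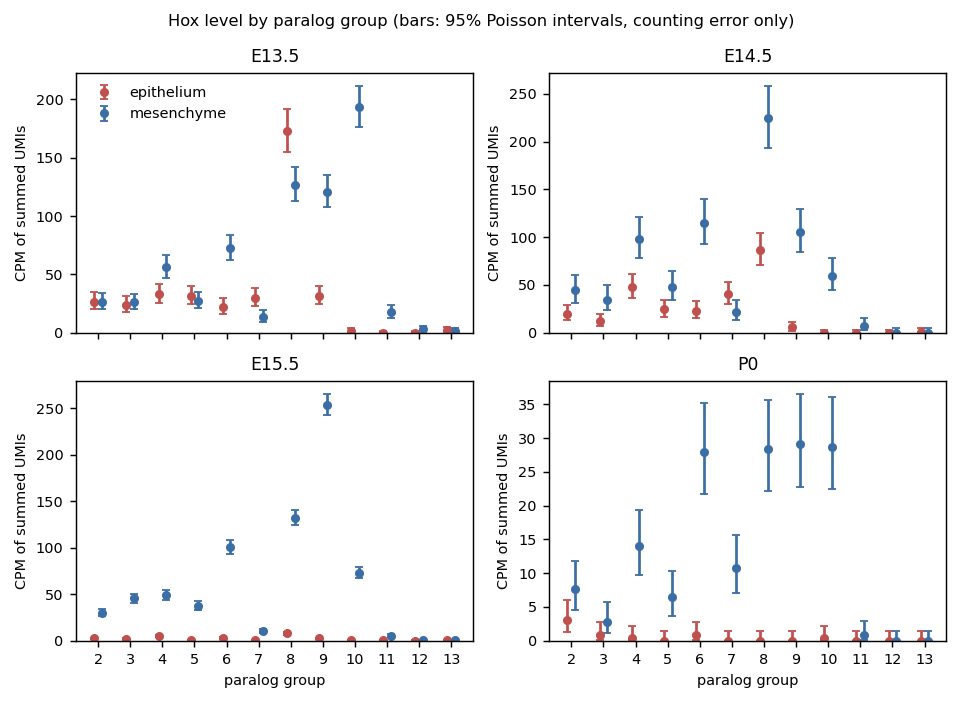
Summed level in CPM of paralog groups 2 to 13, 1 panel per stage with its own vertical scale, for epithelium (red) and mesenchyme (blue), with 95% Poisson intervals. At E13.5 the epithelium peaks at group 8 with 173 CPM and holds 0.980 CPM of group 10, where the mesenchyme holds 193 CPM.

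Counted by gene, most members compared were lower in the epithelium, but 4 HoxA genes were higher there at E13.5. Of 20 members compared at E13.5, 4 were higher in the epithelium, against 9.81% of all 10630 genes compared, and 12 were lower, against 20.7%. The median log2 ratio of the 20, with 1 CPM added to both sides, was -1.24, against -0.17 over all genes compared. At E14.5, 1 of 14 was higher (13.4% of 9067 genes) and 10 were lower (16.8%). At E15.5, 0 of 20 were higher (16.2% of 13149 genes) and 20 were lower (22.3%), with a median of -3.65 against -0.09. At P0, 0 of 7 were higher (23.8% of 10496 genes) and 7 were lower (18.4%). A count of members at one stage is not comparable with that at another, because depth decides how many reach 20 UMIs.

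The 4 members higher in the E13.5 epithelium were all in HoxA. Among them, Hoxa3 stood at 14.7 CPM in the epithelium and 6.23 in the mesenchyme, a ratio of 2.36 (1.23 to 4.72). Hoxa5, which acts in lung and mammary development, stood at 22.5 and 8.30 CPM, a ratio of 2.71 (1.57 to 4.84). Hoxa7 stood at 26.9 and 9.13 CPM, a ratio of 2.95 (1.77 to 5.08). At E14.5 Hoxa7 alone was called higher, with 36.1 CPM in the epithelium (26.5 to 48.2) and 13.1 in the mesenchyme (6.55 to 23.5), a ratio of 2.75 (1.40 to 5.89). These genes were then close to absent from the epithelium: Hoxa7 had 2 UMIs in 532 epithelial cells at E15.5 and 0 at P0, while the mesenchyme held 3.17 and 7.18 CPM. Before that, most of their UMIs lay outside the mammary epithelium-like cells described further on. The kinds of epithelial cell differed between stages, so stage and kind of cell are not told apart here.

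Along the HoxA cluster the bias of the pooled E13.5 epithelium changed side between Hoxa7 and Hoxa10. By the epithelial clusters described further on, Hoxa7 stood at 47.6 CPM in the Col17a1 cluster. It stood at 1.80 in the periderm-like and 2.69 in the mammary epithelium-like cells. Hoxa9, the neighbour of Hoxa10, was lower in the E13.5 epithelium at 15.7 CPM against 37.4, a ratio of 0.419 (0.271 to 0.634). Hoxa10 had 1 UMI in the epithelium and 133 in the mesenchyme (55.2 CPM, 46.2 to 65.4), a ratio of 0.00887 (0.000223 to 0.0503). Hoxa11 had 0 UMIs in the epithelium at every stage and 19 in the mesenchyme, all at E13.5. Hoxa2, Hoxa4 and Hoxa6 had at most 7 UMIs in the epithelium of any stage and were under the 20 UMIs needed for a comparison.

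Hoxc8 was the highest Hox gene of the epithelium at the 3 embryonic stages. Its epithelial level was 170 CPM at E13.5 (153 to 189), then 80.1 (65.3 to 97.2), then 6.93 (5.63 to 8.43), and at P0 it had 0 UMIs, for which the interval ends at 1.41 CPM. Its mesenchymal level was 93.4 (81.6 to 106), 135 (111 to 162), 66.0 (60.2 to 72.2) and 15.2 CPM (10.7 to 20.8). The ratio of epithelium to mesenchyme was thus 1.82 at E13.5 (1.54 to 2.17), short of 2-fold, and 0.594 at E14.5 (0.450 to 0.783), also short of it. At E15.5 it was 0.105 (0.0837 to 0.131), and at P0 Hoxc8 was 13.2-fold lower in the epithelium with 3 counts put for its 0 UMIs.

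The other HoxC genes of the middle groups were lower in the epithelium wherever they were compared, with the exception of Hoxc5 at E14.5. Hoxc6, whose product takes part in thoracic and mammary development, stood at 19.6 CPM in the epithelium and 58.5 in the mesenchyme at E13.5, a ratio of 0.335 (0.229 to 0.478), and the ratio was 0.180 (0.105 to 0.294), 0.0336 (0.0239 to 0.0462) and 0.0295 (0.00350 to 0.111) at the later stages. Hoxc9 had a ratio of 0.315 at E13.5 (0.20 to 0.481) and 0.0975 at E14.5 (0.0248 to 0.280). Hoxc4 had 0.386 at E13.5 (0.217 to 0.658) and 0.339 at E14.5 (0.177 to 0.626). Hoxc5 was lower at E13.5 with 0.492 (0.25 to 0.920) and was not called at E14.5 with 0.527 (0.255 to 1.07). Hoxc13, a gene of hair and nail, had UMIs in the epithelium alone, with 4, 1, 5 and 0 UMIs at the 4 stages, under the 20 needed for a comparison, and 3 of the first 4 lay in the mammary epithelium-like cells described further on.

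At E13.5 the low-numbered HoxB genes differed by less than 2-fold between the tissues, and Hoxb6 and Hoxb9 were lower in the epithelium. Hoxb2, which acts in the hindbrain, stood at 23.5 and 23.3 CPM at E13.5, a ratio of 1.01 (0.673 to 1.51), and Hoxb4 at 20.1 and 18.3 CPM, a ratio of 1.10 (0.70 to 1.72). Hoxb3 had a ratio of 0.501 (0.267 to 0.905), just above the 2-fold limit. Hoxb6 and Hoxb9 had ratios of 0.107 (0.0210 to 0.342) and 0.0674 (0.0179 to 0.180). Hoxb7 with 6 and 11 UMIs and Hoxb8 with 4 and 9 were under the minimum for a comparison. At E14.5 Hoxb4 was again not called, with 29.1 and 39.4 CPM and a ratio of 0.738 (0.449 to 1.22), while Hoxb2, Hoxb3, Hoxb6, Hoxb8 and Hoxb9 were lower. Hoxb2 was the member with the most UMIs left in the P0 epithelium, with 8 of 14 Hox UMIs, 3.06 CPM (1.32 to 6.03) against 7.58 in the mesenchyme (4.56 to 11.8).

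HoxD genes were mesenchymal. Hoxd8 stood at 29.5, 66.8, 29.5 and 10.4 CPM in the mesenchyme of the 4 stages and had 1, 3, 8 and 0 UMIs in the epithelium, with a ratio of 0.0166 at E13.5 (0.000415 to 0.0956) and 0.0190 at E15.5 (0.00809 to 0.0381). Hoxd9 had 0 UMIs in the E13.5 epithelium and 26 in the mesenchyme, 7.35-fold lower with 3 counts put for the 0 UMIs. Hoxd4 had 29, 16, 2 and 1 UMIs in the mesenchyme of the 4 stages, with 5 more at E15.5 under a second identifier listed only there.

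At E13.5 Hoxc10 and Hoxa10 had the lowest ratios of epithelium to mesenchyme among the members with a UMI in both tissues. Hoxc10 had 1 UMI in the E13.5 epithelium and 320 in the mesenchyme (133 CPM, 119 to 148), a ratio of 0.00369 (9.3e-05 to 0.0207). It had 0 and 24 UMIs at E14.5, where the 24 lay in 4 of 31 mesenchymal cells. It had 4 and 457 at E15.5 (0.00445, 0.00121 to 0.0115), and 0 and 56 at P0. With 3 counts put for its 0 UMIs, Hoxc10 was 12.2-fold lower in the epithelium at E14.5 and 19.5-fold lower at P0. Such values are not lower limits of an interval. At E15.5 the gaps of the 20 members compared ran from 0.00445 for Hoxc10, 0.00458 for Hoxb6 (0.000115 to 0.0260) and 0.00610 for Hoxb5 (0.00125 to 0.0180) to 0.0928 for Hoxb4 (0.0675 to 0.126), 0.105 for Hoxc8 and 0.133 for Hoxc4 (0.0730 to 0.229). Hoxa9 and Hoxa10 had 2 and 1 UMIs in the epithelium of that stage and 78 and 55 in the mesenchyme. At P0 Hoxc9 was 17.0-fold and Hoxd8 9.04-fold lower in the epithelium, with 3 counts put for their 0 UMIs. Hoxb4 had 1 and 19 UMIs at P0, a ratio of 0.0505 (0.00121 to 0.318).

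**Figure D3:**
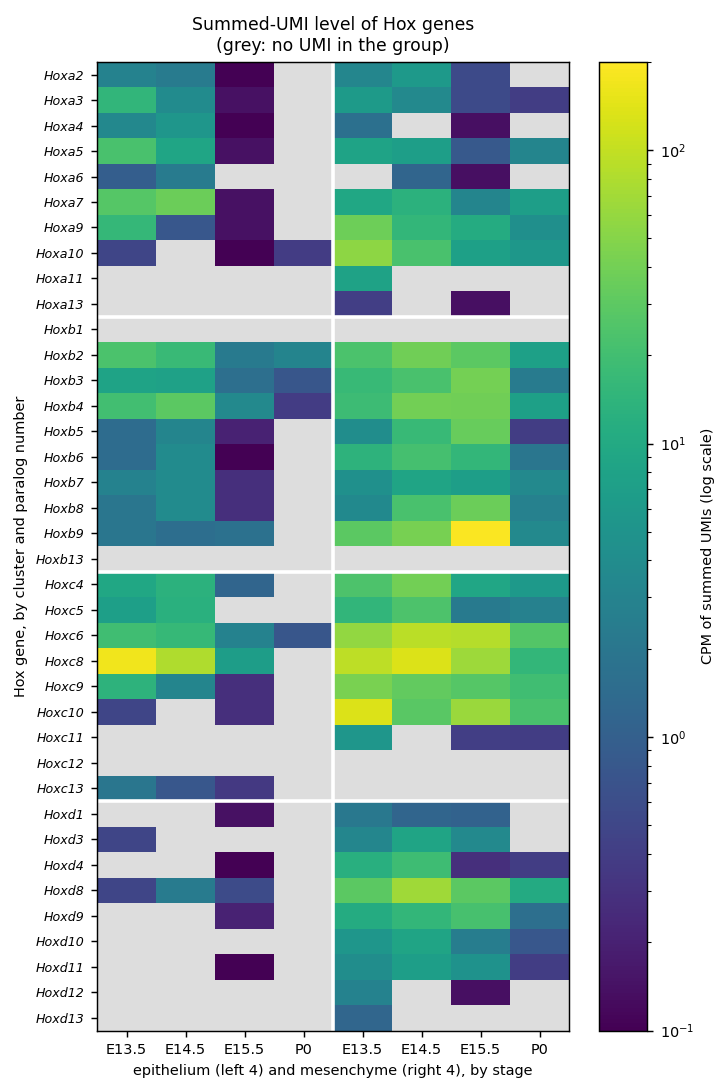
Level of Hox genes in CPM on a log color scale, by stage in the epithelium (left) and the mesenchyme (right); grey cells had no UMI, and levels under 0.1 CPM take the lowest color. Hoxc8 is the brightest gene of the embryonic epithelium, and Hoxa3, Hoxa5 and Hoxa7 are higher there than in the mesenchyme at E13.5. Hoxa10, Hoxc10 and the HoxD genes lie on the mesenchymal side, and Hoxb9 is brightest in the E15.5 mesenchyme at 194 CPM.

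The early epithelium was not uniform, and the HoxA genes were nearly missing from its mammary cells. Cells of each stage and tissue were clustered without the Hox genes among the variable genes (8 were removed at E13.5 and 4 at E14.5), although the non-coding genes of the Hox clusters were kept. At E13.5 the epithelium gave a cluster of 45 cells led by Fbln2, Dcn, Ptn and Col17a1 that stayed unnamed, a periderm-like cluster of 31 cells, and a mammary epithelium-like cluster of 22 cells led by Pthlh, Msx1 and Ndnf. Summed HoxA stood at 95.2 CPM in the Col17a1 cluster (77.9 to 115), 183 in the periderm-like cells (149 to 222) and 8.08 in the mammary epithelium-like cells (1.67 to 23.6), where it was 3 UMIs of 371354. HoxC did not share this: it summed to 293, 75.5 and 234 CPM (262 to 326, 54.4 to 102 and 188 to 289) in the same order. HoxB summed to 62.0, 35.9 and 99.6 CPM (48.2 to 78.4, 21.95 to 55.5 and 70.2 to 137), highest in the mammary epithelium-like cells, with the interval overlapping that of the Col17a1 cluster.

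The clusters carried different HoxA genes. Hoxa3 stood at 43.1 CPM in the periderm-like cells (27.6 to 64.2) and Hoxa5 at 62.9 (43.8 to 87.5), against 5.39 and 9.88 in the Col17a1 cluster. Hoxa7 had the reverse pattern, with 53 UMIs in 20 of 45 cells of the Col17a1 cluster, 47.6 CPM (35.6 to 62.2), and 1 UMI in the periderm-like cells. Hoxa9 followed Hoxa7, with 25.1 CPM in the Col17a1 cluster (16.7 to 36.3) and 3.59 in the periderm-like cells (0.435 to 12.98). In the mammary epithelium-like cells Hoxa3 and Hoxa5 had 0 UMIs, Hoxa7 had 1 and Hoxa9 had 2. General mesenchyme genes summed to 124 CPM in the Col17a1 cluster, 18.0 in the periderm-like and 24.2 in the mammary epithelium-like cells, and their part in these levels was not tested. Dcn, a leading gene of the Col17a1 cluster, is in that list, of which 2 of 9 genes were in at least 0.25 of the cluster's cells.

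The Hox UMIs of the E13.5 mammary epithelium-like cells came mainly from HoxC and HoxB, with genes that the Col17a1 cluster also held. Hoxc8 was detected in 17 of 22 cells at 180 CPM (140 to 229), near the 222 CPM of the Col17a1 cluster (195 to 251) and above the 61.1 CPM of the periderm-like cells (42.3 to 85.4). Hoxb4 stood at 43.1 CPM (24.6 to 70.0) and Hoxb2 at 37.7 (20.6 to 63.3), with intervals that overlap those of the Col17a1 cluster at 18.9 and 22.4 CPM (11.7 to 28.8 and 14.53 to 33.1).

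At E14.5, in a separate library, the same division of HoxA was seen. The mammary epithelium-like cluster of 32 cells had 3 HoxA UMIs, 3.57 CPM (0.735 to 10.4), and the unnamed cluster of 13 cells, led by Krt1, Ube2c, Top2a and Cenpe, had 78, 181 CPM (143 to 225). Hotairm1, a non-coding gene of HoxA that was not removed, is also among the 10 leading genes of the latter. Hoxa7 stood at 102 CPM in the 13 cells (74.0 to 137), found in 8 of them, and at 2.38 in the mammary epithelium-like cells (0.288 to 8.59). Hoxc8 was in both, at 137 and 51.1 CPM (104 to 176 and 37.0 to 68.9). General mesenchyme genes summed to 181 CPM in the 13 cells and 61.8 in the mammary epithelium-like cells. Dcn is again a leading gene of the 13 cells, and 2 of the 9 listed genes were in at least 0.25 of them.

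In the cells named mammary epithelium-like the summed Hox level was also lower at each later age, but at E15.5 the name covered only the cluster led by Ndnf and Tbx3. It was 342 CPM at E13.5 (285 to 407), then 130 (106 to 156), and 46.0 in the 83 such cells of E15.5 (37.0 to 56.5). Other E15.5 epithelial clusters, which did not take this name from the marker list, summed to 12.5 CPM in 215 cells led by Olfr920 and Cd74 (9.67 to 16.0), 19.4 in 109 cells led by Ly6d and Id1 (14.8 to 24.9) and 18.7 in 64 proliferation-like cells (13.6 to 25.1). They can be mammary too: the paper uses Cd74 as a marker of hybrid, Ly6d and Lgals3 of luminal and Ndnf and Pthlh of basal mammary cells at E15.5. The values of the 3 embryonic ages thus do not cover like cells. At E15.5 Hoxc8 remained the leading member in the mammary epithelium-like cluster at 18.2 CPM (12.7 to 25.2) and in an unnamed cluster of 45 cells led by Has2 and Dcn at 25.4 (17.0 to 36.5). General mesenchyme genes, Dcn among them, summed to 233 CPM in the latter, against 65.2 in the mammary epithelium-like cells. Hoxc8 was at 0.954 CPM in the 109 cells led by Ly6d (0.197 to 2.79), and had 0 UMIs in 16 skin-like cells. In the P0 epithelium the clusters named luminal progenitor-like, mature luminal-like and basal-like held 1 to 5 Hox UMIs each.

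**Figure D4:**
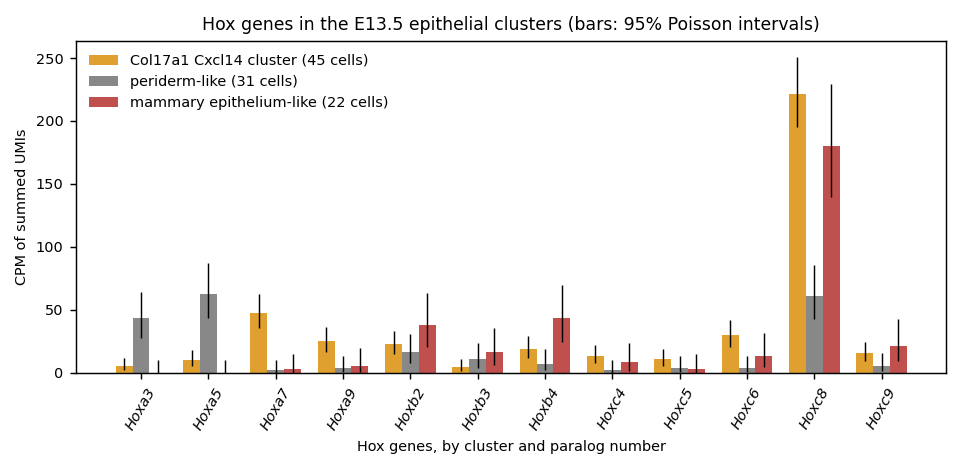
Level in CPM, with 95% Poisson intervals, of Hox genes with 10 or more UMIs in the E13.5 epithelium, in its 3 clusters. Hoxa3 and Hoxa5 stand out in the periderm-like cells, Hoxa7 and Hoxa9 in the Col17a1 cluster, and Hoxc8 is high in the Col17a1 and mammary epithelium-like clusters.

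In the mesenchyme the order of members changed between stages. The highest were Hoxc10 with 133 CPM (119 to 148) and Hoxc8 with 93.4 at E13.5, Hoxc8 with 135 and Hoxc6 with 91.9 at E14.5, Hoxb9 with 194 (184 to 204) and Hoxc6 with 85.3 at E15.5, and Hoxc6 with 25.9 and Hoxc10 with 22.3 (16.9 to 29.0) at P0, whose intervals overlap. Between E13.5 and P0, 17 of 19 members compared were higher at E13.5, against 34.7% of all 10876 genes, and 0 were lower, against 13.9%. The median log2 ratio of these members was 2.07, against 0.56 for all genes. Hoxc10 stood at 133 and 22.3 CPM, a ratio of 5.95 (4.47 to 8.05), and Hoxc8 at 93.4 and 15.2, a ratio of 6.17 (4.36 to 8.94). The largest ratios with more than 3 UMIs on both sides were 9.89 for Hoxa10 (5.69 to 18.6), 8.52 for Hoxa9 (4.54 to 17.7) and 8.10 for Hoxb9 (4.03 to 18.4). Hoxc6 and Hoxc9 changed least among those called, with 2.26 (1.67 to 3.08) and 2.23 (1.58 to 3.2), and Hoxa7 and Hoxb7 were not called, with 1.27 (0.652 to 2.52) and 1.27 (0.479 to 3.47).

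Between E13.5 and E15.5 the mesenchymal sum was nearly level while its members moved in both directions. Of 24 members, 8 were higher at E13.5, against 13% of all 11760 genes, and 6 were lower, against 7.04%. The higher ones were HoxA and HoxC genes with Hoxd4: Hoxa5 (ratio 10.0, 3.89 to 30.6), Hoxa10 (7.29, 5.29 to 10.2), Hoxc5 (6.78, 3.67 to 13.1), Hoxa9 (3.48, 2.54 to 4.77), Hoxa7 (2.88, 1.53 to 5.41), Hoxc4 (2.69, 1.85 to 3.89), Hoxc10 (2.11, 1.82 to 2.44) and Hoxd4. For Hoxd4 the ratio was 43.7 (11.1 to 378) with the 2 UMIs of its shared identifier at E15.5, and 12.5 (5.35 to 33.8) with the 7 UMIs of both identifiers listed there, an alternative chosen after seeing the data. The lower ones were 5 HoxB genes and Hoxd9. Hoxb9 rose from 29.1 to 194 CPM, a ratio of 0.150 (0.116 to 0.190), Hoxb8 from 3.74 to 36.6 CPM, 0.102 (0.0461 to 0.197), and Hoxb5 from 4.15 to 34.4 CPM, 0.121 (0.0571 to 0.225). Hoxb3, Hoxb4 and Hoxd9 had ratios of 0.403, 0.475 and 0.493. HoxA gave 19.0% of the mesenchymal Hox UMIs at E13.5 and 3.23% at E15.5, and HoxB 16.5% and 53.7%. By its file header the E15.5 table came from another software version, and its gene list differs from that of the other stages, which cannot be told apart from the stage. At E14.5, made like E13.5, HoxA gave 9.13% and HoxB 27.9%, and Hoxb9, Hoxb8 and Hoxb5 stood at 41.8, 22.7 and 16.7 CPM.

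In the epithelium, 10 of 10 members compared were higher at E13.5 than at P0, against 19.6% of all 10105 genes, and 0 were lower, against 16.8%; the comparison was added after seeing the levels. Hoxc8 was 149-fold higher and Hoxa7 23.5-fold higher, with 3 counts put for their 0 UMIs at P0. The kinds of cell differed as well. Only 22 of the 98 epithelial cells of E13.5 were in the mammary epithelium-like cluster, which held 1 Hoxa7 UMI against 53 in the Col17a1 cluster. The P0 clusters were all named luminal progenitor-like, mature luminal-like or basal-like. Between E15.5 and P0, 3 of 6 members were higher at E15.5, against 16.5% of all 12247 genes, and 0 were lower, against 14.3%. They were Hoxc8, Hoxb4 with 51 UMIs and 1 (9.33, 1.60 to 376) and Hoxb9 with 24 UMIs and 0. With 3 counts put for its 0 UMIs at P0, Hoxc8 was 6.04-fold higher. Hoxb9, computed in the same way, was 1.46-fold higher (exact lower limit 1.10), short of 2-fold.

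Mesenchymal clusters differed in the level of some members. At E13.5 the sub-epithelial mesenchyme-like cluster (37 cells) held Hoxc8 at 149 CPM (118 to 185) and Hoxc4 at 50.9 (33.8 to 73.5), against 53.5 (41.4 to 68.1) and 12.2 (6.81 to 20.1) in the unnamed cluster of 70 cells led by Ebf2 and Itm2a. Hoxc10 was level across the 3 clusters at 129, 133 and 141 CPM, and the third is proliferation-like. At E15.5 Hoxb9 stood at 233 CPM (213 to 255) in the sub-epithelial mesenchyme-like cells (86 cells) and at 91.1 (76.5 to 108) in the dermal mesenchyme-like cells (73 cells), with summed Hox levels of 775 (737 to 813) and 537 CPM (501 to 576). Hoxd9 had 60 and 10 UMIs there, 28.7 and 6.65 CPM. The highest summed Hox level of the E15.5 mesenchymal clusters was that of the proliferation-like cells (66 cells), at 892 CPM (854 to 931). An unnamed E15.5 cluster of 58 cells, led by Krtdap, Krt14 and Sfn and holding 336 CPM of the general epithelium list, had 0 UMIs of Hoxa9 and 1 of Hoxa10 beside 181 CPM of Hoxb9 (158 to 205). At P0 Hoxc10 was at 31.1 CPM in the Pi16 fibroblast-like cells (20.97 to 44.4, 91 cells) and 9.01 in the elastic matrix fibroblast-like cells (2.46 to 23.1, 53 cells), and Hoxc8 at 11.4 (5.69 to 20.4) and 31.5 (17.2 to 52.9), with overlapping intervals in each case. The P0 mesenchyme also held a cluster of 8 cells led by globin genes and by S100a9, S100a8 and Ngp, in which the Hox genes summed to 0 UMIs, for which the interval ends at 61.0 CPM.

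Group 10 genes, Hoxa10, Hoxc10 and Hoxd10, pattern the lumbar region and the hindlimb, and were used to divide the cells of the pooled buds. Whether cells with such a UMI came from more posterior buds was not tested, because no label gives the position of a cell. After thinning to 5000 UMIs, 56 of 135 mesenchymal cells had a group 10 UMI at E13.5 (41.5%, 33.1 to 50.3), and at the later stages 7 of 31 (22.6%, 9.59 to 41.1), 74 of 283 (26.1%, 21.1 to 31.7) and 34 of 273 (12.5%, 8.78 to 17.0). In the epithelium of the same libraries the number was 0 of 98, 0 of 45, 0 of 532 and 0 of 230. The exact interval for the share of cells with such a UMI at this depth ends at 3.69%, 7.87%, 0.691% and 1.59%. It sets no limit on cells that express the genes. Without thinning, 83, 9, 137 and 46 mesenchymal cells and 2, 0, 4 and 1 epithelial cells had such a UMI. The intervals of E14.5 and E15.5 overlap each other, and that of P0 lies below those of E13.5 and E15.5. At E15.5 the share was 29.1%, 28.8% and 31.8% in the clusters named sub-epithelial, dermal and proliferation-like and 12.1% (4.99 to 23.3) in the cluster led by Krtdap.

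Within the mesenchyme, cells with a group 10 UMI after thinning (positive) and all others (negative) were compared for the other 36 members. Positive cells numbered 56 at E13.5, 74 at E15.5 and 34 at P0. Without thinning, 83, 137 and 46 cells had such a UMI, so the negative cells include some that carry one. Median depth was 15484 and 17322 UMIs in positive and negative cells at E13.5, 24773 and 24103 at E15.5, and 9968 and 8640 at P0. At E13.5, 2 of 16 members were higher in positive cells, against 1.93% of all 9160 genes, and 2 were lower, against 1.77%. Hoxc9 stood at 63.9 and 31.3 CPM, a ratio of 2.04 (1.37 to 3.07), and Hoxa5 at 14.3 and 4.66, 3.07 (1.14 to 9.09). Hoxd8 stood at 9.92 and 41.3 CPM, a ratio of 0.240 (0.105 to 0.486), and Hoxb6 at 6.61 and 18.0, 0.368 (0.124 to 0.909). At E15.5, 2 of 18 were higher, against 1.13% of all 10921 genes, and 0 were lower, against 2.37%. These were Hoxa9, with 24.9 and 5.62 CPM (4.44, 2.76 to 7.25), and again Hoxc9, with 44.2 and 20.99 CPM (2.10, 1.57 to 2.82). Hoxd8, Hoxb8 and Hoxc8 had ratios under 1 at E15.5 that were short of 2-fold, 0.599 (0.410 to 0.854), 0.580 (0.413 to 0.80) and 0.741 (0.589 to 0.925). At P0, 0 of 4 were higher, against 2.26% of all 8043 genes, and 0 were lower, against 2.66%; Hoxc9 had a ratio of 1.00 (0.380 to 2.25). Without the E15.5 cluster led by Krtdap, 1 member was higher in the positive cells of E15.5. With levels taken from the thinned UMIs, 1 was higher and 0 were lower at E13.5 and 0 were higher at E15.5. The share of all genes called was not computed for these alternatives.

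**Figure D5:**
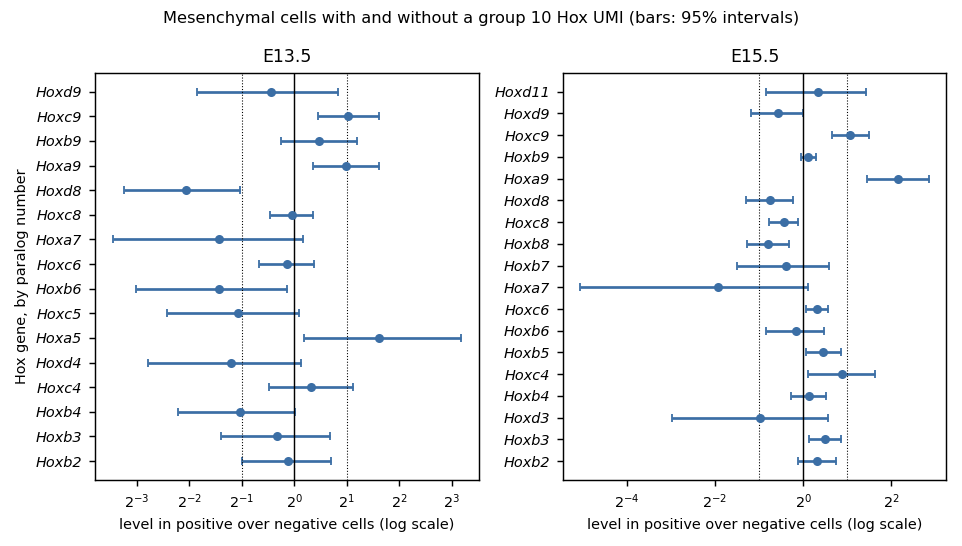
Ratio of the level in group 10 positive mesenchymal cells to that in negative cells, on a log axis, for the other Hox genes compared. Genes of E13.5 and E15.5 are ordered by paralog number from below, with 95% intervals and dotted lines at 2-fold. Positive cells had a group 10 Hox UMI after thinning, and some negative cells had one only before it. Hoxc9 lies past 2-fold at both stages (2.04 and 2.10) and Hoxa9 at 4.44 at E15.5.

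The E15.5 mesenchymal cells offered the most group 10 positive cells, and the genes with ratios above that of Hoxa9 there rested on few cells. Mfap5, a microfibril protein, had 43 UMIs in the positive and 13 in the negative cells (9.17, 4.84 to 18.6), but in 2 and 6 cells. Wnt2 had 16 and 5 UMIs (8.88, 3.11 to 30.98) in 4 and 4 cells. Hoxa9 followed these and Stxbp2 in this order, with UMIs in 22 of 74 positive and 19 of 209 negative cells. Of the genes after it, Akr1b10 was in 13 positive and 11 negative cells and Casp12 in 13 and 17, while Clec3b was in 1 and 9. The 10 genes with the lowest ratios all had 0 UMIs in positive cells, among them the desmosome gene Dsg2 with 56 UMIs in 13 negative cells. The cluster led by Krtdap, with 336 CPM of the general epithelium list, had 7 positive cells of 58. Its part in these low ratios was not tested.

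Of 9 Hox cofactor genes (Pbx, Meis and Pknox families), 8 were compared at E13.5, and 0 were higher (9.81% of all genes) and 2 lower (20.7%) in the epithelium. The 2 lower genes were Meis1 and Meis3. Meis1 stood at 26.9 and 129 CPM, a ratio of 0.209 (0.154 to 0.279). Meis2 stood at 279 and 486, a ratio of 0.573 (0.518 to 0.634), short of 2-fold and not called. By E15.5 Meis2 was at 69.5 CPM in the epithelium and 433 in the mesenchyme, 0.161 (0.149 to 0.173). In the epithelium Meis2 was 22.1-fold higher at E13.5 than at P0 (15.54 to 32.4) and Meis1 7.83-fold (3.84 to 18.0). Of 20 genes that act on Hox transcription (Polycomb and Trithorax proteins, retinoic acid receptors and others), 15 were compared between the E13.5 tissues, with 2 higher, among them Suz12, and 3 lower (Gdf11, Cbx8 and Rarb) in the epithelium, shares near those of all genes. Ezh2, the Polycomb methyltransferase, stood at 165 and 158 CPM there, and in the mesenchyme it was 3.44-fold higher at E13.5 than at P0 (2.79 to 4.28).

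Other factors of positional identity were largely mesenchymal. Of 22 such genes 19 were compared at E13.5, with 0 higher and 15 lower in the epithelium (9.81% and 20.7% of all genes), and at E15.5 17 were compared, with 3 higher (Lmx1b, Irx3 and Isl1) and 13 lower (16.2% and 22.3%). Tbx15 had 1 UMI in the E13.5 epithelium and stood at 69.8 CPM in the mesenchyme, a ratio of 0.00702 (0.000177 to 0.0397). Tbx3, needed for mammary buds to form, stood at 109 and 96.7 CPM, 1.12 (0.931 to 1.36). In the mesenchyme 17 of 19 were higher at E13.5 than at P0 and 0 lower, against 34.7% and 13.9% of all genes. In group 10 positive cells of E13.5, 2 were higher, among them Shox2, and En1 and Tbx3 lower, En1 with 8.82 and 36.6 CPM (0.241, 0.0990 to 0.508) and Tbx3 with 49.6 and 125 CPM (0.396, 0.279 to 0.551), against 1.93% higher and 1.77% lower of all genes. Of these, 0 were called in the same comparison at E15.5, where 15 of the 22 were compared (1.13% and 2.37% of all genes).

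Members at the ends of the clusters were the rarest. Hoxb1, Hoxb13 and Hoxc12 had 0 UMIs in the kept cells of the 4 libraries, Hoxa13 had 2 and Hoxd13 had 3. Hoxa6 had 7, Hoxd12 had 8, Hoxc13 had 10, Hoxd1 had 16 and Hoxc11 had 17, and the most abundant were Hoxb9 with 1553, Hoxc8 with 1404 and Hoxc6 with 1006.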

How the data were processed

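The authors deposited, for each library, a table of raw counts (UMIs by gene and cell barcode), without normalization. Per the file headers, Cell Ranger 3.1.0 made that of E15.5 and 6.0.0 the others, on mm10, although version 6.0.0 is also listed for E15.5. In the sort, doublets were gated out per the labels, and no doublet caller was run. Ensembl identifiers joined the stages. Of 981, 807, 2642 and 1466 barcodes, 235, 76, 816 and 503 were kept, and 3 with equal epithelial and mesenchymal sums were left out of both tissues. Each tissue and stage was clustered by itself (Seurat 5.3.0, sctransform 0.4.2, R 4.3.3; genes in at least 3 cells, 2000 variable genes, 15 components, resolution 0.8). A cluster was named from marker lists where at least 3 markers were in 0.25 of its cells and 2 were raised by 0.5 (log2 fold, 10 CPM added) with a mean of at least 0.25, unless markers of another class were more frequent among its 10 leading genes. These limits came after a first look at the clusters. A median log2 ratio has 1 CPM added to both sides.

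The members and gene lists were chosen with earlier results of these data known. Genes were named by a rule: the 8 highest members of each stage and tissue, members called in a comparison, members with 3 or fewer UMIs, the cofactor, regulator and positional lists, and the 10 highest and lowest ratios of the E15.5 group 10 comparison. Hoxc13 and further uncalled members were named after their values were seen, and lists are given by count with examples. Single-gene results of some genes are not reported here. The interval and call rule was run on simulated Poisson counts of each stage. These counts follow the model that the intervals assume and leave out differences between cells, so the rule was not tested under such differences. The alternatives were a UMI minimum of 3000, a mitochondrial maximum of 10%, thinning to 5000 UMIs, a margin of 3 between the tissue sums, equal weight for cells, and other clusterings and group 10 splits. Python 3.11.15 with numpy 2.4.6 and scipy 1.17.1 was used.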

Additional observations from a re-analysis of the deposited data

Results flagged for a closer look

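Some Hox genes had ratios of epithelium to mesenchyme on both sides of 1 at different stages, and these differences between stages were not tested. At E13.5 and E14.5 most epithelial UMIs of Hoxa5 and Hoxa7 lay outside the mammary epithelium-like cells. Stage and kind of epithelial cell are thus not told apart here. For Hoxa5 the ratio was 2.71 at E13.5, 0.169 at E15.5 (2 and 6 UMIs) and, with 3 counts put for 0 UMIs, 0.360 at P0 (0 and 8 UMIs). The E15.5 and P0 values were under the 20 UMIs needed for a comparison. For Hoxa7 it was 2.95 at E13.5, 2.75 a day later, 0.0442 in the E15.5 cells and, computed in the same way, 0.160 at P0 (0 and 18 UMIs, also under that minimum). For Hoxc8 it was 1.825 at E13.5, 0.594 a day later, 0.105 in the E15.5 cells and, computed in the same way, 0.0757 at P0.

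Non-coding genes of the Hox clusters, which are not members, also had UMIs in the kept cells: Hotairm1 had 439, Hoxb3os 251, Hoxb5os 173, Hoxd3os1 144, Hoxaas3 75, Hoxaas2 16, Haglr 8 and Hoxa11os 6. Barcodes removed by the filters held 444, 328, 812 and 100 Hox UMIs at the 4 stages.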

How the results depend on the processing

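The lower summed Hox level of the epithelium kept its direction at every stage and under every alternative tried, including mammary epithelium-like cells in place of all epithelial cells (log2 -1.01, -2.55 and -4.00 at the embryonic stages, chosen after seeing the data). The E15.5 value covers only the cluster led by Ndnf and Tbx3. Counts of called members fell with fewer UMIs. The members compared and the share of all genes called were not counted for any alternative, so whether this fall is particular to the Hox genes was not tested. Thinning to 5000 UMIs gave 1 member higher and 3 lower in the epithelium at E13.5, 0 and 1 at E14.5, 13 lower at E15.5 and 3 lower at P0. Between stages it gave 9 higher at E13.5 than at P0 and 3 than at E15.5 in the mesenchyme, and in the epithelium 1 higher at E13.5 and 0 at E15.5 than at P0. A UMI minimum of 3000, with thinning to 3000, gave group 10 shares of 9.09%, 17.7% and 6.11% in the mesenchyme at E14.5, E15.5 and P0. The group 10 comparison moved most: at E13.5 a split on unthinned UMIs gave 1 higher and 4 lower, a mitochondrial maximum of 10% 1 and 1, and levels from thinned UMIs 1 and 0. At E15.5 these gave 3 lower, 2 lower and 0 higher, and leaving out the cluster led by Krtdap 1 higher (chosen after seeing the data). At resolution 0.4 the E15.5 sub-epithelial and Krtdap clusters fell into 1 of 725 summed Hox CPM. No paired analysis was possible because each stage has 1 library, and no replicate could be left out. Depth limits the P0 epithelium, with 14 Hox UMIs in all, and the E14.5 mesenchyme, with 31 cells.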

Other observations

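Hotairm1, a non-coding gene of the HoxA cluster, was higher than any Hox gene but Hoxc8 in the E13.5 epithelium, at 127 CPM (112 to 143) against 9.13 in the mesenchyme (5.72 to 13.8). By cluster it stood at 305 CPM in the periderm-like cells (261 to 355), 78.1 in the Col17a1 cluster (62.6 to 96.4) and 5.39 in the mammary epithelium-like cells (0.652 to 19.5), with the first 2 in the order of Hoxa3 and Hoxa5. At E14.5 it had 62 UMIs in the 13 cells led by Krt1, 144 CPM (110 to 184), and 1 UMI in the mammary epithelium-like cells. It was kept among the genes that could form clusters and was a leading gene of the E14.5 cluster. Hoxaas3 followed it at E13.5, with 82.7 CPM in the periderm-like cells (60.5 to 110) and 0 UMIs in the mammary epithelium-like cells.

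Hoxb3os stood at 13.7, 18.1, 7.35 and 8.41 CPM in the epithelium of the 4 stages, while the HoxB genes summed there to 61.7, 70.7, 9.93 and 4.21 CPM. Hoxb5os stood at 0.830 CPM in the E13.5 mesenchyme (0.101 to 3.00), 19.1 on the next day (10.9 to 31.005) and 19.6 in that of E15.5 (16.5 to 23.1).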
